A study of Mus musculus with 10 samples.

Results

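The Hox genes were taken as every row of the count table with the biotype protein_coding and a symbol made of Hox, a cluster letter from a to d and a number, which gave 39 of 55486 genes. The table held 10 RNA sequencing libraries of cells grown in 5 gels of collagen and BME (basement membrane extract), each cultured for 7 days and then sorted by color. Normal fibroblasts (NFs) came from mammary glands of mTmG mice aged 8 weeks, in which cells are red until Cre recombinase turns them green. They were sorted into CD26- NFs, left Tomato+, and CD26+ NFs, which received adeno-Cre and became GFP+, so the virus and the subset cannot be told apart. Both subsets were kept in 2D culture for a week and mixed in equal parts. The tumor cells were lines 13-MCB-17 and 10-SJK-221 from invasive lobular carcinomas (ILC) of mice with WapCre and Cdh1F/F, in which the Wap promoter drives Cre in mammary epithelium. Gel 1 held NFs alone (1 library of each subset). Gels 2 and 3 held tumor cells alone, of line 13-MCB-17 and line 10-SJK-221. Gel 4 combined NFs with line 13-MCB-17 and gel 5 NFs with line 10-SJK-221, and either gave 1 library each of CD26- NFs, CD26+ NFs and tumor cells. NFs were pooled from several mice, so gels are the replicates, and they may share a pool. The main fits below took libraries as independent, with no term for the gel, so p-values measure the spread between libraries. Gels 2 and 3, and gels 4 and 5, also differ in tumor line, which only the fits of the tumor libraries took as a term.

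Hox genes encode homeodomain transcription factors. In the mouse they lie in the clusters HoxA, HoxB, HoxC and HoxD, in which the order of the genes follows the order in which they are switched on from head to tail in the embryo. Members with the same number in different clusters are paralogs, and low numbers mark the anterior end, high numbers the posterior end and the distal limb. Adult fibroblasts are known to keep a Hox pattern that reflects the body site they came from. HoxA held 11 members (chromosome 6, 52155590 to 52260880), HoxB 10 (chromosome 11, 96194316 to 96368256), HoxC 9 (chromosome 15, 102921103 to 103036852) and HoxD 9 (chromosome 2, 74668310 to 74765142), all in GRCm38.

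The paralogs share the homeobox, the 180 bases that encode the DNA-binding homeodomain, and the sequences of a pair of group 9 paralogs are shown because reads of close paralogs can be hard to assign. They run 5′ to 3′, cover the whole homeobox and come from GENCODE M21 transcripts, with capitals at bases that differ from Hoxb9.
Hoxb9: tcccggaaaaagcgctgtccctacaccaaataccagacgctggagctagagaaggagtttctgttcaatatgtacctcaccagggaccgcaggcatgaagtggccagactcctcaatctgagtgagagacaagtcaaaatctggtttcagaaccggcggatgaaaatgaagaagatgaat
Hoxc9: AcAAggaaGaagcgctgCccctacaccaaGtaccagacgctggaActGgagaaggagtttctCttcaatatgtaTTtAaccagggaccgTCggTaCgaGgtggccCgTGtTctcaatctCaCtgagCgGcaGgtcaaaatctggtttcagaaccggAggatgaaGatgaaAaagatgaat
Hoxc9 differed from Hoxb9 at 29 of 180 bases, and the longest stretch without a difference was 24 bases. A homeobox was found in all 39 members, and the median identity was 80.6% over 42 pairs of the same group and 60.6% over 699 other pairs. Windows of 54 bases were shared between transcripts of different members in only 2 pairs. These were Hoxd3 with Hoxd4 and Hoxc5 with Hoxc10, whose gene models overlap on the same strand. Counts of these 4 members are therefore uncertain, as are those of Hoxb3, which overlaps the antisense gene Hoxb3os over 52.9% of its exon length, since the use of strand in counting was not given in the sources used here.

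Libraries held 14142334 to 18408940 counts. Levels below are in CPM (counts scaled to the library total), a member is called expressed at 1 CPM, and the limit that a count of 0 allows was 3 counts, or 0.163 to 0.212 CPM, for counting error only. Fibroblast and epithelial markers separated NFs from tumor cells as labelled. The summed level of 8 fibroblast markers was 23317 to 74846 CPM in NFs and 38.7 to 177 CPM in tumor cells. The summed level of 8 epithelial markers was 3909 to 5182 CPM in tumor cells and 0.807 and 1.12 CPM in NFs alone, but 115 to 317 CPM in co-cultured NFs. Dpp4, which encodes CD26, did not exceed 0.771 CPM, so the subset label could not be checked. The study reports, from flow cytometry, a quick fall of CD26 in cultured CD26+ NFs. In bulk samples, fewer cells of a type and less RNA per cell cannot be told apart.

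Tumor cells had reads of anterior HoxA genes and almost none of the rest, whereas NFs expressed members of all 4 clusters. Of 39 members, 24 were at 1 CPM or more in all 6 NF libraries (24 to 28 in each library), 7 in HoxA, 7 in HoxB, 8 in HoxC and 2 in HoxD. Tumor cells expressed 3 members in all 4 libraries, among them Hoxa3 and Hoxa5. The summed Hox level was 186 to 375 CPM in NFs and 13.1 to 15.6 CPM in tumor cells. HoxA made up 98.1 to 100% of the sum in tumor cells, and 9.83 to 16.6% in NFs. Of the 39 members, 30 had 0 counts in every tumor library and 32 had no more than 3 counts in any.

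**Figure D1:**
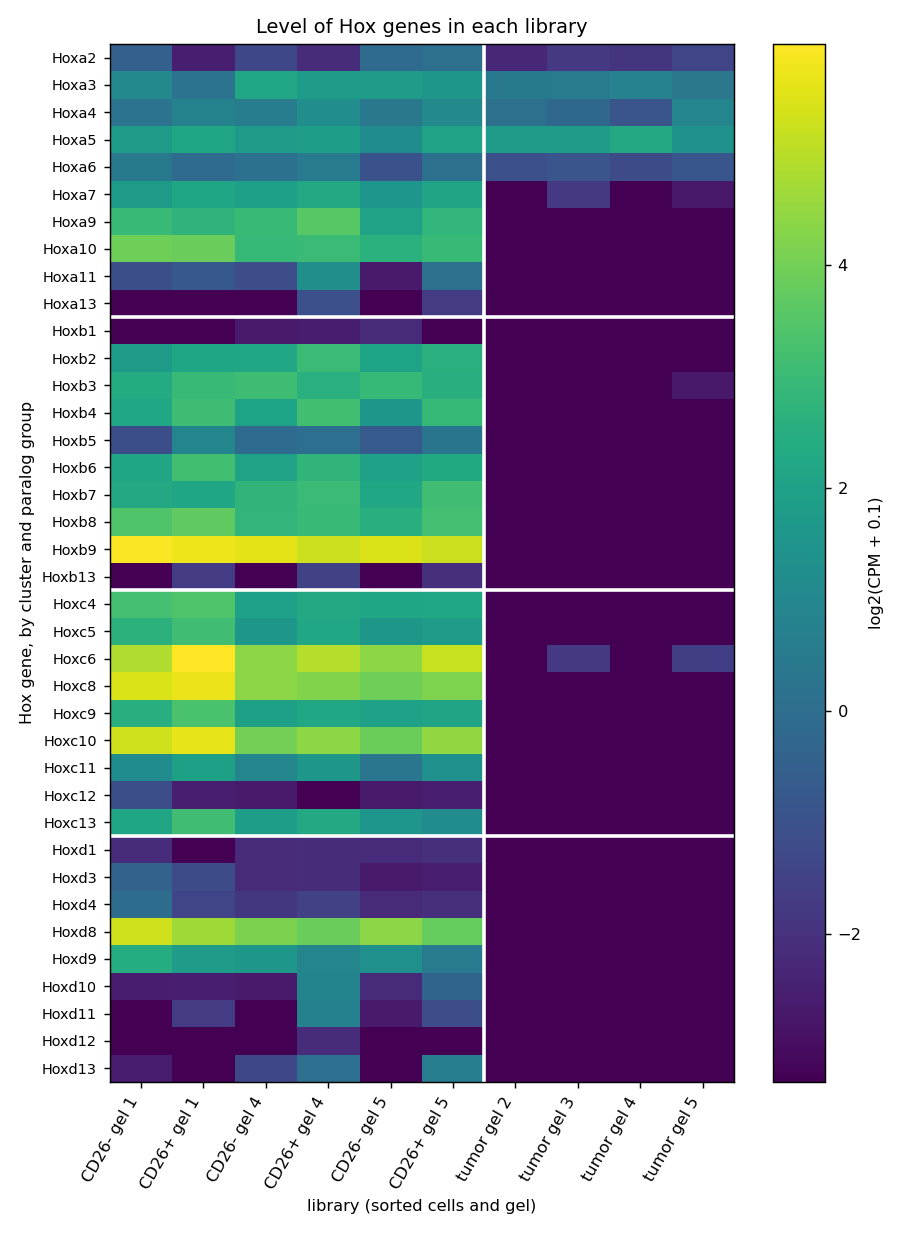
Level of the Hox genes (rows, ordered by cluster and paralog group) in each of 10 libraries (columns), as log2(CPM + 0.1) in color. The 6 NF libraries show all 4 clusters, whereas in the 4 tumor libraries reads stop after Hoxa6, apart from a few reads of Hoxa7, Hoxb3 and Hoxc6.

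**Figure D2:**
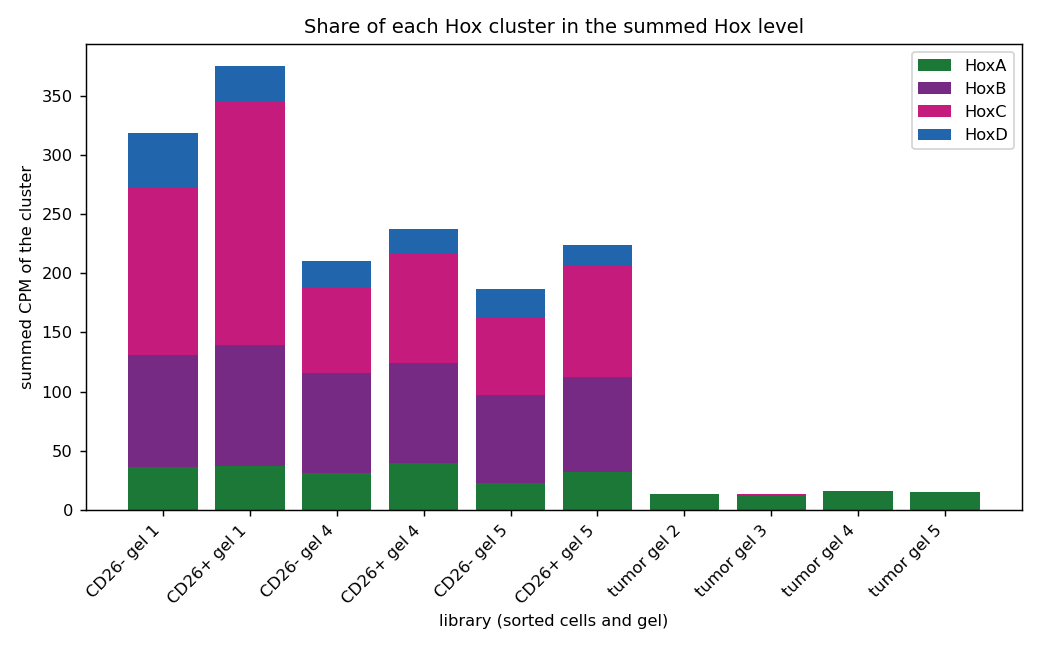
Summed CPM of the members of each cluster, stacked, in each library. NF bars reach 186 to 375 CPM and tumor bars 13.1 to 15.6 CPM, nearly all of it HoxA.

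In NFs the peak of each cluster lay in the middle to posterior groups. Values per library are given below in CPM as gel 1, gel 4 and gel 5, in each gel CD26- NFs before CD26+ NFs. Hoxb9 (ENSMUSG00000020875), a posterior HoxB member, had 61.2 and 53.8, 48.9 and 38.7, and 44.5 and 37.4 CPM. Hoxc6 (ENSMUSG00000001661), of the middle of HoxC, had 29.4 and 63.0, 20.5 and 30.8, and 21.01 and 36.3 CPM. Both were far above every tumor library, and the gel 1 libraries were the highest of their subset. Hoxc8 (ENSMUSG00000001657) had 44.1 and 51.7, 20.3 and 18.7, and 15.3 and 18.2 CPM. Hoxc10 (ENSMUSG00000022484), a gene of the lumbar region and hindlimb in the embryo, had 39.7 and 50.0, 16.4 and 21.1, and 14.7 and 22.2 CPM. Hoxd8 (ENSMUSG00000027102) had 39.9 and 25.2, 17.6 and 14.5, and 20.3 and 13.7 CPM. For these 3 members no co-cultured library reached the gel 1 libraries.

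Levels between genes were compared per kilobase of merged exons. In NFs alone the order was Hoxc10 (23.5 CPM per kb), Hoxb9 (22.3), Hoxc6 (19.2), Hoxc8 (16.9) and Hoxd8 (11.9). In co-cultured NFs it was Hoxb9 (16.5 CPM per kb), Hoxc6 (11.3), Hoxc10 (9.75), Hoxc8 (6.39) and Hoxd8 (6.02), so the same 5 members led in both. In NFs alone, each of the first 4 overlapped with its neighbors among them between the libraries. In tumor cells alone Hoxa5 had 1.79 CPM per kb, ahead of Hoxa4 (0.546), Hoxa6 (0.472) and Hoxa3 (0.21). Spearman's rho of the level per kilobase over the 39 members, which share libraries and depth, was 0.945 between CD26- and CD26+ NFs alone, 0.935 between NFs alone and co-cultured NFs, and 0.975 between NFs of gels 4 and 5, against -0.0161 between NFs and tumor cells alone. The last value rests on few members, since most were tied at 0 in tumor cells alone.

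**Figure D3:**
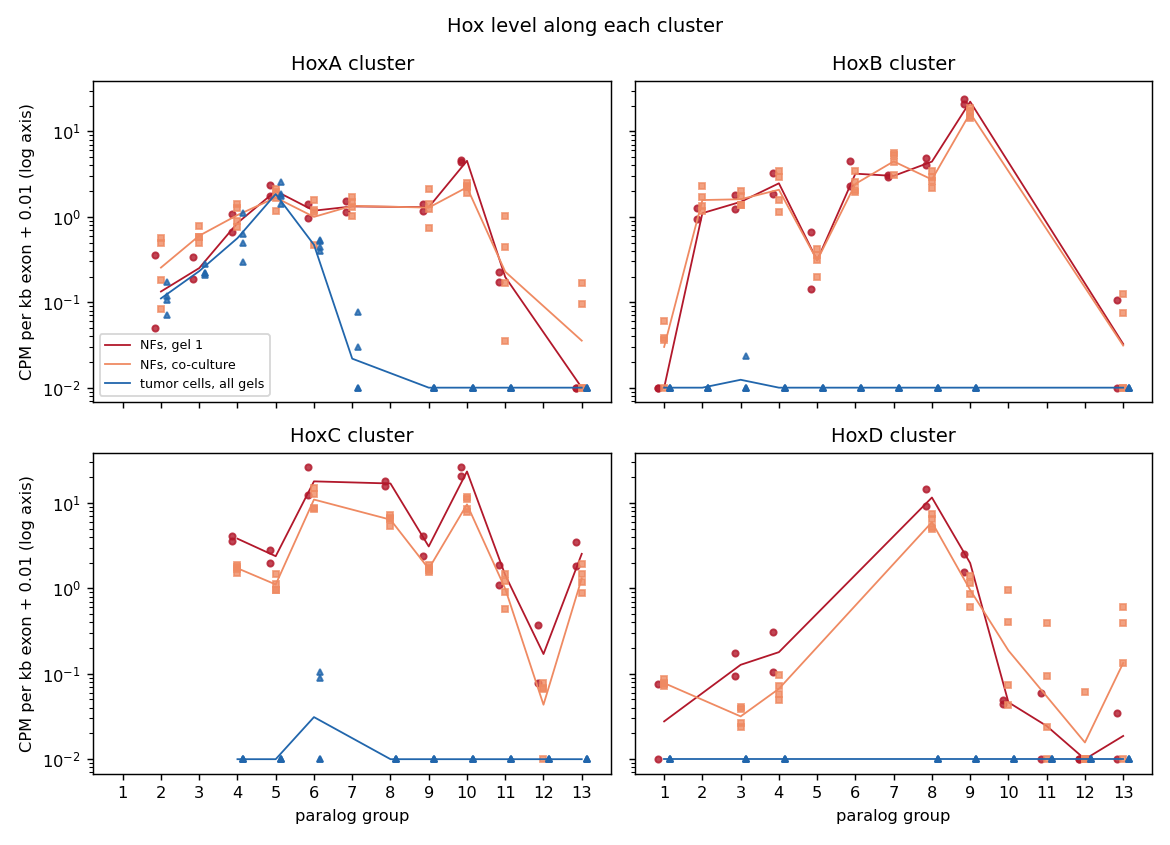
Level per kilobase of exon (CPM per kb + 0.01, log axis) against paralog group, for each cluster. Points are libraries and lines the geometric mean of NFs of gel 1, co-cultured NFs and all tumor libraries, and the tumor line leaves the NF lines behind group 6 of HoxA and lies at or near the bottom of the axis in the other clusters.

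Several HoxA members of the anterior to middle groups were read in both cell types. Hoxa3 had 1.25, 1.27, 1.64 and 1.20 CPM in tumor cells of gels 2 to 5, and 1.99 and 1.05, 4.67 and 3.40, and 3.45 and 2.90 CPM in NFs. Hoxa4 had 0.978, 0.763, 0.452 and 1.77 CPM in tumor cells and 1.06 and 1.68, 1.39 and 2.25, and 1.21 and 1.98 CPM in NFs. Hoxa5, known from the development of lung and mammary gland, had 3.42, 3.31, 4.75 and 2.62 CPM in tumor cells and 3.23 and 4.35, 3.09 and 3.60, and 2.19 and 3.96 CPM in NFs. NF and tumor libraries overlapped for Hoxa3, Hoxa4 and Hoxa5. Hoxa2 and Hoxa6 were low in both, at 0.0702 to 0.99 and 0.403 to 1.35 CPM in NFs and 0.109 to 0.285 and 0.339 to 0.456 CPM in tumor cells.

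From Hoxa7 on, the tumor cells had almost no reads. Hoxa7 had 3.23 and 4.42, 3.70 and 4.82, and 2.88 and 4.24 CPM in NFs, and 0, 3, 0 and 1 counts in tumor cells. Hoxa9, known for its part in blood stem cells and leukemia, had 7.89 and 6.53, 7.82 and 11.8, and 4.03 and 6.79 CPM in NFs and 0 counts in tumor cells. Hoxa10 had 15.1 and 14.5, 7.33 and 8.03, and 6.10 and 7.57 CPM in NFs and 0 counts in tumor cells. Among the members, the break thus fell between Hoxa6 and Hoxa7, whose gene models are 5768 bp apart in GRCm38. The Hoxa3 gene model also reaches across Hoxa4, Hoxa5 and Hoxa6. Of the 20 other annotated genes within HoxA, 8 had counts in tumor cells, among them Hotairm1, with 28, 29, 16 and 31 counts in gels 2 to 5.

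No member of HoxB, HoxC or HoxD was expressed in tumor cells. In HoxB, Hoxb2 had 3.29 and 4.42, 4.61 and 7.97, and 4.09 and 5.87 CPM in NFs. Hoxb3 had 5.22 and 7.65, 8.42 and 5.85, and 7.42 and 5.80 CPM. Hoxb4, a gene of blood stem cells, had 4.72 and 8.42, 4.06 and 8.80, and 2.94 and 7.50 CPM, higher in CD26+ NFs of every gel. Hoxb6 had 4.47 and 8.77, 4.00 and 6.68, and 3.86 and 4.95 CPM. Hoxb7 had 4.78 and 4.49, 6.67 and 8.09, and 4.72 and 8.70 CPM. Hoxb8 had 10.6 and 12.8, 6.85 and 7.58, and 5.70 and 8.98 CPM. All 6 were below Hoxb9 in every NF library. Hoxb5 was lower still (0.373 to 1.82 CPM), Hoxb13 did not exceed 0.257 CPM, and Hoxb1 had no more than 2 counts in any library. Hoxb3 had 1 count in the tumor library of gel 5.

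In HoxC, Hoxc4 had 9.07 and 10.5, 3.88 and 4.82, and 4.32 and 4.60 CPM in NFs. Hoxc5 had 6.15 and 8.70, 2.91 and 4.50, and 2.94 and 3.46 CPM. Hoxc9 had 5.71 and 9.83, 3.76 and 4.56, and 3.91 and 4.17 CPM. In all 3, both gel 1 libraries were above the 4 co-cultured ones. Hoxc11 had 2.17 and 3.79, 1.82 and 2.95, and 1.15 and 2.47 CPM. Hoxc13, known for its role in hair and nail, had 4.47 and 8.63, 3.58 and 4.75, and 2.88 and 2.12 CPM. Hoxc12 had at most 6 counts. Hoxc6 had 3 and 4 counts in the tumor libraries of line 10-SJK-221 (gels 3 and 5) and 0 in those of line 13-MCB-17, and Hoxa7 had 3 and 1 counts in the same libraries. In HoxD, beside Hoxd8, Hoxd9 had 5.34 and 3.30, 2.97 and 1.80, and 2.47 and 1.27 CPM. Hoxd1, Hoxd3, Hoxd4 and Hoxd12 stayed under 1 CPM in every NF library, and Hoxd10, Hoxd11 and Hoxd13 exceeded it in CD26+ NFs of 1 co-culture gel each.

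The upstream sequence is shown for Hoxa6, the last HoxA member with more than 3 counts in a tumor library, and for Hoxd8, the HoxD member with the most reads in NFs and none in tumor cells. Each is the 250 bases before the RefSeq start (GRCm38.p6), 5′ to 3′ on the gene's strand, with CpG in capitals: chr6:52208673-52208922 on the minus strand for Hoxa6 and chr2:74704365-74704614 on the plus strand for Hoxd8.
Hoxa6: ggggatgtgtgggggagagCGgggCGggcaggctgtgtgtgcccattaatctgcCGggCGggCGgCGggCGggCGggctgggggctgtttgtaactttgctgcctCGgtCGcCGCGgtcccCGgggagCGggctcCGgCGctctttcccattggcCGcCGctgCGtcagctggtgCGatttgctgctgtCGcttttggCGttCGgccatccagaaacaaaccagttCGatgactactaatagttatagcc
Hoxd8: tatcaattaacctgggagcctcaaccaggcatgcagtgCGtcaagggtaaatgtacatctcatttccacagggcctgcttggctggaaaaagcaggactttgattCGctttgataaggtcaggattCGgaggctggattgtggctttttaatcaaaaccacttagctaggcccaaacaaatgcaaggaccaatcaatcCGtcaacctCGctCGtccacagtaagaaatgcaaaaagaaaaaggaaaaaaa
The window of Hoxa6 held 24 CpG and that of Hoxd8 held 6. The median was 12.5 over 24 windows of 22 Hox genes in the RefSeq table and 6 over all 32851 windows.

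To ask how far NFs and tumor cells differ, both were compared in 1 fit over all libraries with edgeR's quasi-likelihood test and Benjamini-Hochberg adjustment over all genes tested, at a threshold of 0.05. Grown alone, 24 of 33 members tested were higher in NFs. Over all 17048 genes tested, 28.4% were higher and 27.1% lower (55.5% either way). The 24 were 4 of HoxA, all 8 of HoxB, all 8 of HoxC and 4 of 7 of HoxD. From shared gels, 26 of 33 were higher, against 27.7% higher and 24.2% lower of all genes tested (51.8% either way). In both comparisons most members tested passed the filter only through their NF reads. Of the 39 members, 30 had 0 counts in every tumor library. Their direction was thus largely fixed in advance, and the share of all genes is not a like comparison. Hoxa3 was higher in NFs from shared gels (1.52 ± 0.32, adjusted p = 0.00412) but had 0.33 ± 0.37 and an adjusted p of 0.48 in cells grown alone. The count of members called fell from 27 to 18 without gel 4 and to 18 without gel 5.

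Since most of these members had 0 counts in tumor cells, folds are lower bounds against 3 counts per library. In cells grown alone 23 members had such a bound, with a median of at least 37.1-fold and a highest of at least 325-fold, for Hoxb9. The bound was at least 271-fold for Hoxc8, at least 254-fold for Hoxc10 and at least 184-fold for Hoxd8. Hoxc6, with 3 counts in tumor cells alone, was 514-fold higher in NFs (95% counting interval 175 to 2495), and Hoxa7 was 43.1-fold higher (14.4 to 212). Of the 30 members with 1 CPM in some library, 23 had their lowest NF library above the highest tumor library, against 19.2% of 15621 such genes. Of the 24 members expressed in all NF libraries, 19 (79.2%) had at most 3 counts in every tumor library, as did 593 of 11458 such genes (5.18%).

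Co-culture with tumor cells left the set of expressed Hox genes largely as it was, and levels of the HoxC cluster were lower. Over the 6 NF libraries, with subset as a term, 14 of 30 members tested changed (46.7%), 3 higher and 11 lower. Both subsets of a gel entered as separate libraries, so the p-values rest on 2 gels against 1 gel. Over all 15013 genes tested 48.8% changed, 25.9% higher and 22.9% lower, so the share of members called was near that of all genes. The median log2 change was -0.28 over the 30 members and 0.02 over all genes. Within HoxC, 6 of 8 members fell and the median was -0.96. Hoxc8 fell by 1.36 ± 0.14 on the log2 scale (SE, adjusted p = 5.49e-05) and Hoxc10 fell by 1.23 ± 0.13 (adjusted p = 5.37e-05). Hoxc4 fell by 1.10, Hoxc5 by 1.05, Hoxc9 by 0.84 and Hoxc6 by 0.67, with adjusted p-values from 0.00222 to 0.0196. The other 2 HoxC members tested, Hoxc11 and Hoxc13, had -0.47 and -0.88 and adjusted p-values of 0.268 and 0.0625.

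In the other clusters, Hoxd8 fell by 0.91 ± 0.15 (adjusted p = 0.000828), Hoxd9 by 0.98 ± 0.30 (0.0222), Hoxa10 by 0.98 ± 0.18 (0.00159), Hoxb8 by 0.65 ± 0.19 (0.0196) and Hoxb9 by 0.40 ± 0.12 (0.0214). Hoxa3 rose by 1.31 ± 0.34 (adjusted p = 0.0104). Hoxd10 and Hoxd13 also passed, with adjusted p-values of 0.0456 and 0.0479, from 1 and 1, and 1 and 0 counts in the gel 1 libraries. Their ratio of co-cultured NFs to NFs alone was 9.55 (95% counting interval 2.48 to 81.5) for Hoxd10 and 19.6 (3.32 to 792) for Hoxd13, and neither passed with DESeq2 (adjusted p of 0.124 and 0.0673). The anterior HoxB members and Hoxa4 to Hoxa9 did not pass. Hoxb7 had 0.61 ± 0.26 (adjusted p = 0.0777) and Hoxa9 0.07 ± 0.34 (0.877).

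**Figure D4:**
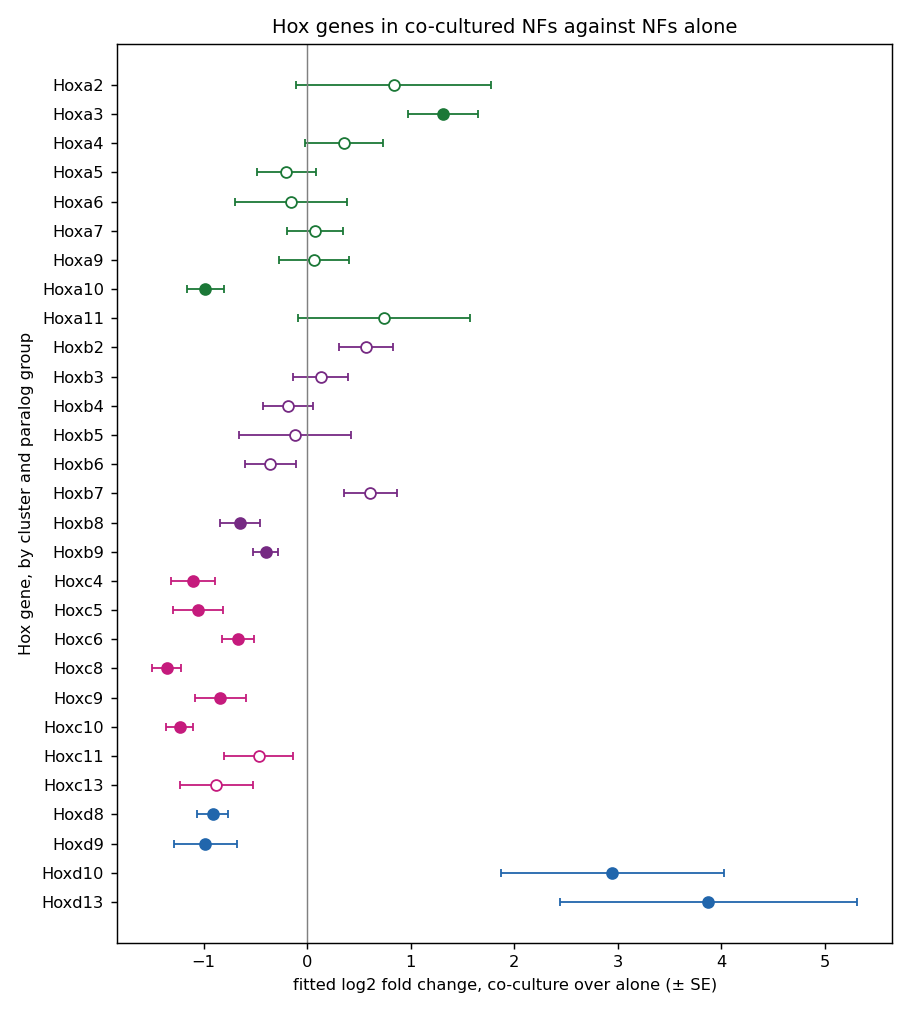
Fitted log2 fold change of co-cultured NFs over NFs alone for members tested, with bars of 1 SE. Filled points have an adjusted p under 0.05, colors mark the clusters, and all 8 HoxC points lie below 0.

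NFs alone came from 1 gel, so co-culture and that gel cannot be told apart, and 8 members were called without gel 4 and 8 without gel 5, in place of 14. Markers moved with this comparison: the fibroblast sum, with all 8 markers detected, was 69497 and 74846 CPM in gel 1 and 23317 to 41536 CPM in co-culture. The collagens Col1a1, Col1a2 and Col3a1 made most of this sum, whereas Dcn had 1621 and 1943 CPM alone and 1909 to 2935 CPM in co-culture, and Thy1 had 223 and 456 CPM alone and 464 to 1293 CPM in co-culture. Lum had 577 and 609 CPM alone and 359 to 553 CPM in co-culture. Pdgfra had 789 and 666 CPM alone and 428 to 561 CPM in co-culture. Pdgfrb overlapped, with 1043 and 764 CPM alone and 483 to 1262 CPM in co-culture. Of 8 epithelial markers, 6 had at most 3 counts in both gel 1 libraries, and their sum rose from 0.807 and 1.12 CPM to 115 to 317 CPM. Pericyte markers, 4 in all, summed to 40.5 and 82.3 CPM alone and 190 to 450 CPM in co-culture. Cspg4 had 2.48 and 5.97 CPM alone and 59.7 to 175 CPM in co-culture, and Notch3 had 28.3 and 68.9 CPM alone and 125 to 271 CPM in co-culture, whereas Rgs5 had 9.25 and 6.11 CPM alone and 1.88 to 6.22 CPM in co-culture, and Kcnj8 did not exceed 3.89 CPM. The 4 immune markers summed to 3.60 and 7.23 CPM alone and 20.1 to 54.0 CPM in co-culture, nearly all of it Cd68, while Ptprc and Adgre1 had at most 3 counts in every NF library. The 4 endothelial markers summed to 1.12 and 4.91 CPM alone and 8.00 to 22.9 CPM in co-culture. Their part in the Hox result was not tested. Tumor cells had 0 counts of 8 of the 9 HoxC genes.

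Over 3 gels with culture as a term, 3 of 30 members tested differed, 2 higher and 1 lower (10.0%), against 7.53% of all 15013 genes tested (3.93% higher and 3.60% lower), so the share of members called was near that of all genes. Hoxb4 was higher in CD26+ NFs by 0.94 ± 0.23 on the log2 scale (SE, adjusted p = 0.0399) and Hoxc6 by 0.68 ± 0.15 (adjusted p = 0.0283). Hoxd8 was lower, at -0.67 ± 0.14 (adjusted p = 0.0282). The direction was the same in all 3 gels for each of them. Of the 24 members expressed in all NF libraries, 13 had a higher CPM in CD26+ NFs of all 3 gels and 4 a lower one, against 37.7% and 14.0% of 11458 genes expressed in all NF libraries. These counts depend on the scaling to library totals. With TMM scaling, an alternative chosen after seeing the data, 10 members were higher and 4 lower, against 19.2% and 30.4% of the same genes. HoxC then had 4 of 8 on the higher side, in place of 6, and HoxD had 2 of 2 on the lower side either way. Hoxb9 (-0.41 ± 0.12, adjusted p = 0.0595) and Hoxd9 (-0.92 ± 0.30, adjusted p = 0.0896) were lower in CD26+ NFs of all 3 gels without passing in edgeR. DESeq2 called 4 members, with Hoxb9 added (-0.42 ± 0.14, adjusted p = 0.0382). Without gel 5 no member passed, and without gel 4 Hoxb4 did not (adjusted p = 0.107), which left 2. Without gel 1, Hoxc6 and Hoxd8 did not pass (0.105 and 0.0969), and 3 members were called, among them Hoxd10 and Hoxa11, which have few reads in gel 1, so this is no test of their pattern. Marker sums moved with the subset in all 3 gels. CD26+ NFs had the lower fibroblast sum (69497 against 74846, 23317 against 37998 and 29343 against 41536 CPM in gels 1, 4 and 5), most of which is the collagens Col1a1, Col1a2 and Col3a1. Dcn and Thy1 went the other way in all 3 gels, Dcn with 1943 against 1621, 2935 against 2157 and 2867 against 1909 CPM and Thy1 with 456 against 223, 639 against 464 and 1293 against 725 CPM. Pdgfrb was lower in CD26+ NFs of all 3 gels (764 against 1043, 483 against 907 and 747 against 1262 CPM). Pdgfra was lower too (666 against 789, 556 against 561 and 428 against 450 CPM). Lum was higher in CD26+ NFs of gel 1 and lower in those of gels 4 and 5. CD26+ NFs had the higher epithelial sum (1.12 against 0.807, 172 against 115 and 317 against 139 CPM), immune sum (7.23 against 3.60, 54.0 against 32.6 and 32.5 against 20.1 CPM) and endothelial sum (4.91 against 1.12, 22.9 against 9.88 and 12.9 against 8.00 CPM). The pericyte sum was higher in CD26+ NFs of gel 1 and lower in those of gels 4 and 5. The part of these markers in the subset differences was not tested.

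**Figure D5:**
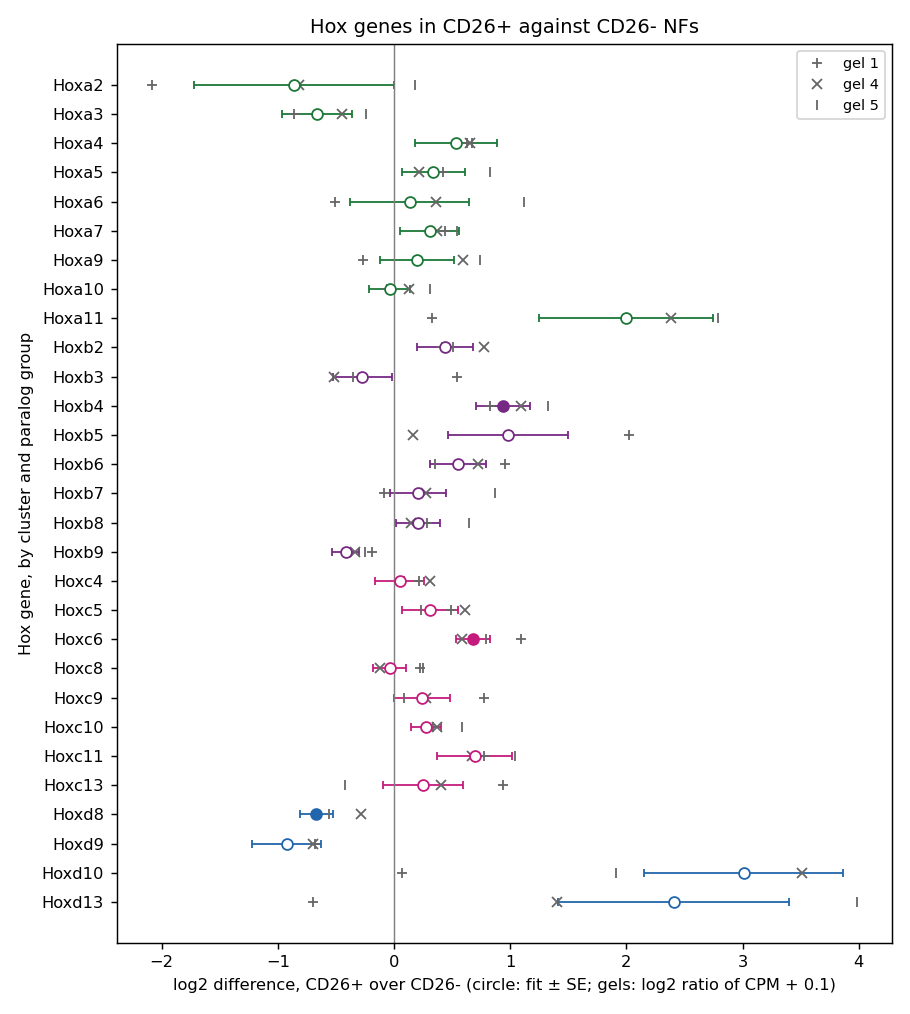
Log2 difference of CD26+ over CD26- NFs for members tested. Circles are the fit with 1 SE (filled where the adjusted p is under 0.05), gray marks the log2 ratio of CPM + 0.1 in each gel, and Hoxd10, Hoxd13 and Hoxa11 stand to the right with gel 1 apart from gels 4 and 5.

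The posterior HoxA and HoxD members pattern the distal limb and the genital region. A set of 5 of them was chosen after their values were seen, for reads mainly in co-cultured CD26+ NFs, so that pattern is a description. Hoxd10 had 1 and 1, 1 and 27, and 2 and 10 counts in CD26- and CD26+ NFs of gels 1, 4 and 5. Hoxd11 had 0 and 3, 0 and 25, and 1 and 5 counts. Hoxd13 had 1 and 0, 5 and 15, and 0 and 21 counts. Hoxa11 had 6 and 7, 6 and 36, and 1 and 14 counts, and Hoxa13 had counts in the co-cultured CD26+ libraries only (6 and 3). Of the posterior members outside this set, Hoxd12 had 2 counts in all, in CD26+ NFs of gel 4, and Hoxa10 had 243 and 206, 121 and 125, and 106 and 107 counts. Hoxa9 had 127 and 93, 129 and 184, and 70 and 96 counts. Hoxd9 ran the other way, with 86 and 47, 49 and 28, and 43 and 18 counts. Hoxa11 overlaps the antisense gene Hoxa11os over 35.0% of its exon length. Over all 3 gels Hoxd10 (adjusted p = 0.0625), Hoxd13 (0.171) and Hoxa11 (0.136) did not pass.

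Whether the response to co-culture differs between subsets was tested with the interaction of subset and culture. None of 33 members passed in edgeR, against 0.376% of 16231 genes, and 1 had an unadjusted p under 0.05 (Hoxb3, 0.0355). DESeq2 also called 0. Hoxd10 and Hoxd13 had interaction terms of 3.48 ± 2.78 and 5.98 ± 3.90, and NFs alone came from 1 gel.

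In tumor cells 4 members passed the filter, among them Hoxa3, Hoxa4 and Hoxa5, and were compared by culture and by line. None passed in edgeR or in DESeq2 in either comparison, and 0 had an unadjusted p under 0.05, against 22.3% of 13197 genes for culture (10.8% higher and 11.5% lower) and 14.5% for line (5.93% higher and 8.54% lower). Co-culture against tumor cells alone gave log2 changes of 0.14 ± 0.40 (SE) for Hoxa3, 0.17 ± 0.59 for Hoxa4 and 0.07 ± 0.30 for Hoxa5. Hoxa5 had -0.53 ± 0.30 for line, with an adjusted p of 0.289.

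Hox proteins bind DNA with cofactors of the TALE class, the Pbx, Meis and Pknox proteins. All 9 were tested, and in cells grown alone 6 were higher in NFs and 1 was lower, against 28.4% and 27.1% of all genes tested. In CPM, Meis3 was at 25.3 and 35.3 in NFs of gel 1 and at 0.652 and 0.763 in tumor cells of gels 2 and 3, a log2 difference of 5.52 (adjusted p = 4.2e-06). In co-culture 4 of 9 passed (44.4%, near the share of all genes). Pknox2 fell by 1.82 and Pbx3 by 0.83, and Pknox1 rose by 0.36.

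Of 21 chromatin regulators that act on Hox clusters, 18 were tested. In cells grown alone 11 of 18 were lower in NFs and 0 higher, against 27.1% and 28.4% of all genes tested. Among the 11 was Ezh2, the methyltransferase of Polycomb complex PRC2, at 17.3 and 19.5 CPM in NFs and 49.2 and 73.4 CPM in tumor cells. Between subsets 1 of 18 differed (5.56%, against 7.53% of all genes), Cbx8 of PRC1, which was higher in CD26+ NFs by 0.87 ± 0.23 (adjusted p = 0.0469). In co-cultured NFs 5 of 18 rose and 3 fell (44.4%, against 48.8% of all genes tested). Cbx7 rose by 1.27 and Suz12 of PRC2 by 1.05, and Bmi1 fell by 0.92. Cdx1, Cdx2 and Cdx4, which activate Hox genes in the embryo, were not tested and did not exceed 0.421 CPM.

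Among 30 other transcription factors with a positional pattern, 20 of 26 tested were higher in NFs grown alone and 0 lower, against 28.4% and 27.1% of all genes tested. Of the 30, 17 had at most 3 counts in every tumor library, so any of these that were tested passed the filter through NFs. Of the 19 at 1 CPM or more in all NF libraries, 8 had at most 3 counts in every tumor library, as did 5.18% of all genes expressed in all NF libraries. Tbx3, which is needed for the mammary gland, had 46.5 and 46.6 CPM in NFs alone, 104 to 121 CPM in co-cultured NFs and at most 0.0566 CPM in tumor cells. In co-culture 6 of 25 tested rose and 8 fell (56.0%, against 48.8% of all genes tested). Those that rose included Tbx3 by 1.27, Twist2 by 1.76 and Foxf1 by 2.34, and among the others Prrx2 fell by 2.12 and Tbx15 fell by 1.66. Between subsets 1 of 25 passed (4.00%, against 7.53% of all genes), Pitx1, which specifies the hindlimb. It had 0 and 2.18, 0 and 0.835, and 0.0575 and 0.424 CPM in CD26- and CD26+ NFs of gels 1, 4 and 5 (adjusted p = 0.0179). Unlike Hoxd10, Pitx1 was highest in the CD26+ library of gel 1.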

How the data were processed

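RNA from sorted cells of 10 samples was sequenced with a stranded mRNA kit. The authors deposited raw counts per gene for all libraries in a single table. The submitters' processing notes name HISAT2 2.2.1 and GRCm38, and the counting program and annotation are not given in the sources used here. Coordinates of 98.7% of 55486 genes, and of all 39 Hox genes, equaled GENCODE M21, which supplied exon lengths. One line without a gene ID held 0 counts. A further floxed allele of the tumor model and some genes of the lists are not reported here. Groups came from the labels. Counts were tested with edgeR 4.0.16 in R 4.3.3 (TMM, filterByExpr, quasi-likelihood F test, Benjamini-Hochberg adjustment over all genes tested, threshold 0.05), checked on simulated data. The simulation drew independent libraries without a gel effect and changed no genes with few reads. It is therefore no check of members near 0 counts or of differences between gels. SE was the log2 fold change divided by the root of F. Alternatives were RLE scaling, DESeq2 1.42.0, other filters, an absolute log2 fold change above 2, gel as replicate block, and leaving out gels. Counting intervals are exact (Clopper-Pearson, 95%) on summed counts and cover counting error only, since reads lacking molecular identifiers do not stand for independent molecules. Members expressed in NFs or tumor cells are given in every library. The members, the lists of TALE cofactors, chromatin regulators, positional factors and markers, and the tests were chosen with earlier results of these data known. The replicate number is the gel, and the labels tie the cells of gels 4 and 5 to a shared gel. The differences between gels 5 and 4 correlated at 0.119 between CD26- and CD26+ NFs over 17048 genes, at 0.119 between CD26- NFs and tumor cells, and at 0.0699 between CD26+ NFs and tumor cells.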

Additional observations from a re-analysis of the deposited data

How the results depend on the processing

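Of the values of single Hox genes under the alternatives, 1284 kept their side of the threshold, 60 kept the direction but no longer passed, and 5 newly passed. Among values that passed in the main fit or in the alternative, 0 changed direction. Changes of direction among values that passed in neither were not counted. With the added criterion of an absolute log2 fold change above 2, 0 members differed between subsets and 2 with co-culture, by construction. Leaving out single gels gave 0 to 3 members between subsets (main 3) and 8 to 8 with co-culture (main 14), from fewer libraries. With gel as replicate block, 3 members differed between subsets, 0 in the interaction and 26 between NFs and tumor cells from shared gels (27 without it), and the block changed no other count of calls. Counting expression at 1 CPM per kilobase of exon, 15 members rather than 24 were expressed in all NF libraries. The comparison of NFs and tumor cells grown alone gave 21 to 25 members under its alternatives (main 25). RLE scaling moved the median of all genes to 0.12 (0.06 with TMM) in NFs against tumor cells from shared gels, and Hoxa6 then passed (1.44, adjusted p = 0.048). Only 1 gel of NFs alone and few counts of the most posterior members limit what these libraries can show.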
